A study of Mus musculus with 16 samples.

Results

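The 9 insulin and insulin-like growth factor (IGF) signalling genes Igf1, Igf1r, Insr, Irs1, Irs2, Pik3r1, Akt2, Foxo1 and Tbc1d4 were taken by symbol from a table of 16091 genes, and all 9 passed the filter on low values that kept 14189 genes for testing. The rule used the gene symbol and no measured value, though the members were chosen with earlier results of these data known. RNA came from inguinal white adipose tissue, the subcutaneous fat of the groin, of C57BL6/J mice. Mice were fed control diet or high-fat diet and, within each diet, were left untreated or given an anti-PDGFcc antibody, which makes 4 groups of 4 libraries. The antibody (AF1447), which binds the growth factor PDGF-CC, was injected into the peritoneum at 50 mg/kg in 100 µl every other day, starting at 6 weeks of age. The labels do not state any mock injection of untreated mice, the length of the diets or whether each library is a separate animal, so the p-values measure the spread between these libraries, which may be technical in part.

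Insulin and IGF1 act through related receptor tyrosine kinases, INSR and IGF1R, which pass the signal to the docking proteins IRS1 and IRS2. These bring in phosphatidylinositol 3-kinase, whose regulatory subunit is made by Pik3r1, and the lipid it makes activates AKT2. In fat cells AKT2 holds the transcription factor FOXO1 out of the nucleus and inhibits TBC1D4, which otherwise keeps vesicles of the glucose transporter GLUT4 inside the cell. FOXO1 in turn raises transcription of Irs2 and Insr in several tissues, so the pathway feeds back on its own genes. The signal itself is carried largely by phosphorylation, which messenger RNA does not report.

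The docking protein genes are shown by sequence because their promoters are the only ones, of the 8 members with a promoter in the RefSeq table, that hold both an E-box (CACGTG, its own reverse complement) and TGTTTTG, the core of the insulin response sequence. Both stretches are from RefSeq on GRCm38.p6, 60 bases each from the minus strand, written 5′ to 3′, with the matches in capitals. The Irs1 stretch is chr1:82291517-82291576, 137 to 78 bases before the start site, and the Irs2 stretch is chr8:11008936-11008995, 66 to 7 bases before it.
Irs1: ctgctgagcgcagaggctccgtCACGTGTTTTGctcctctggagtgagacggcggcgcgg
Irs2: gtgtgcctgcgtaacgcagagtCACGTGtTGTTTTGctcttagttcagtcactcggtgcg
In Irs1 the 2 matches share bases, and in Irs2 1 base lies between them. Of 32851 mouse promoters of 300 bases (250 before the start site and 50 after), 7.15% held CACGTG, 6.28% held TGTTTTG on either strand and 0.408% held both. Promoter windows were matched for 8 of the 9 members, 12 windows in all. GTAAACA, one form of FOXO element, was on either strand in 0 of the 12 against 3.65% of all promoters. At that share 12 windows are too few for 0 to show a lack, and other forms were not searched under that name. A match is a description of these letters and no evidence that a factor binds there.

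Levels of the members differed widely. Per kilobase of merged exons, the mean over 16 libraries was highest for Akt2, at 1508 normalized counts per kb. Pik3r1 followed at 956 and Igf1 at 895. Irs2, Insr, Foxo1, Tbc1d4 and Irs1 lay close together, at 369, 332.5, 322, 298 and 271 normalized counts per kb, and Igf1r was lowest by far at 38.7. On this scale the insulin receptor message was thus well above that of the IGF1 receptor. The level of a gene in bulk tissue mixes cell types, and fewer cells of a type cannot be told apart from less RNA per cell. Exons of Irs1, Irs2 and Foxo1 overlap a gene on the opposite strand (Gm9747, 9530052E02Rik and Gm20402), none of them among the genes tested.

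The labelled tissue carried its markers in every library. Summed normalized counts of 7 adipocyte markers lay between 523846 and 698176, and the adiponectin gene Adipoq alone between 78008 and 97146. Skeletal muscle, a neighbouring tissue, was present to very different degrees: 9 muscle markers summed to between 251 and 35163 in untreated control-diet libraries and between 33743 and 188639 with antibody on that diet. On the high-fat diet they summed to between 6288 and 566841 without antibody, the top value in replicate 2, and between 151 and 9074 with it. Summed levels of 4 beige adipocyte markers reached 77705 in untreated control-diet replicate 3. The values of a library added up to between 24.02 and 28.15 times 1e6 normalized counts, and the read depth behind them is unknown.

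**Figure D1:**
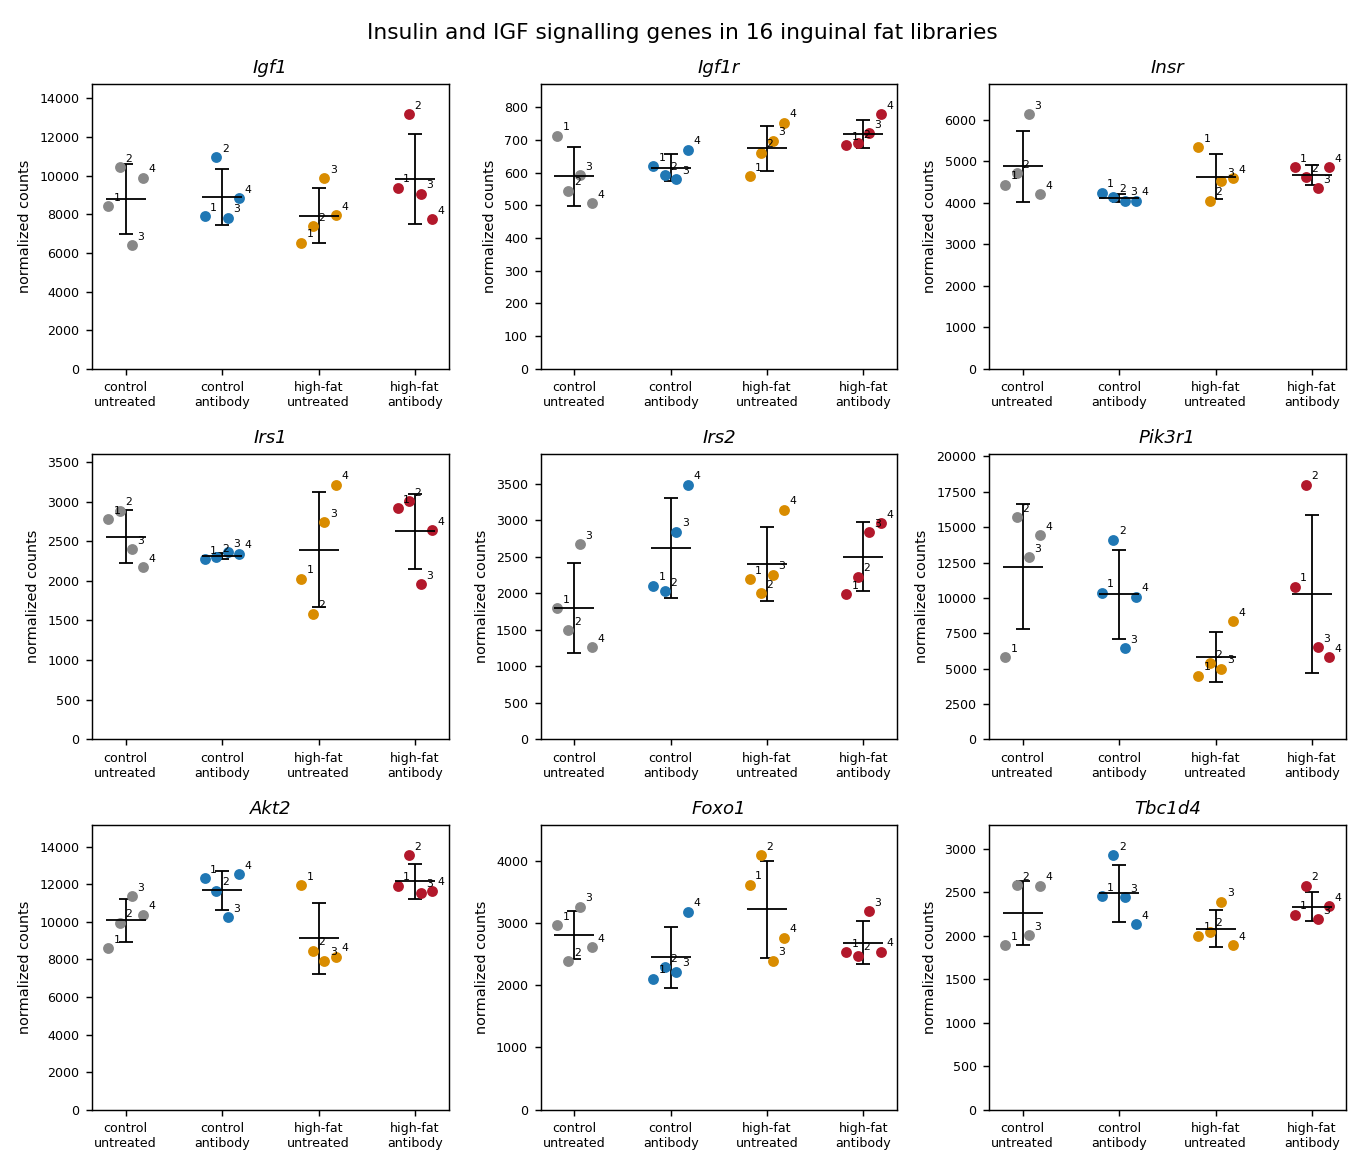
Normalized counts (linear axis from 0) of the 9 members in each library, with the replicate number beside each point and the group mean with its SD (n = 4) in black. Igf1r is higher in all 4 high-fat libraries with antibody than in all 4 control-diet libraries with antibody, and Pik3r1 in untreated control-diet replicate 1 (5795) lies far below the other 3 libraries of its group.

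In a linear model over all 16 libraries (limma, Benjamini-Hochberg adjusted over 14189 genes, threshold adjusted p under 0.05), 1 of the 9 members passed in 1 contrast, Igf1r with diet averaged over antibody. With the diet in untreated mice, 0 of 9 members passed, against 8.15% of all genes tested, and 1 member had an unadjusted p under 0.05 against 30.3% of all genes. With the diet in antibody-treated mice 0 of 9 passed (0.00705% of all genes), 1 at the unadjusted level (18.1%). For the antibody on the high-fat diet 0 of 9 passed (0.0775%), 1 unadjusted (13.5%), and on the control diet 0 of 9 (0.0987%), 2 unadjusted (11.6%). For the interaction of diet and antibody 0 of 9 passed by limma (0% of all genes), and 0 were under an unadjusted p of 0.05 against 6.18%. Averaging each effect over the other factor gives 8 libraries against 8. The averaged diet effect called that 1 member against 19.4% of all genes and 8.28% of all genes called higher. The averaged antibody effect called 0 of 9 (2.52%), with 1 at the unadjusted level (16.8%).

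**Figure D2:**
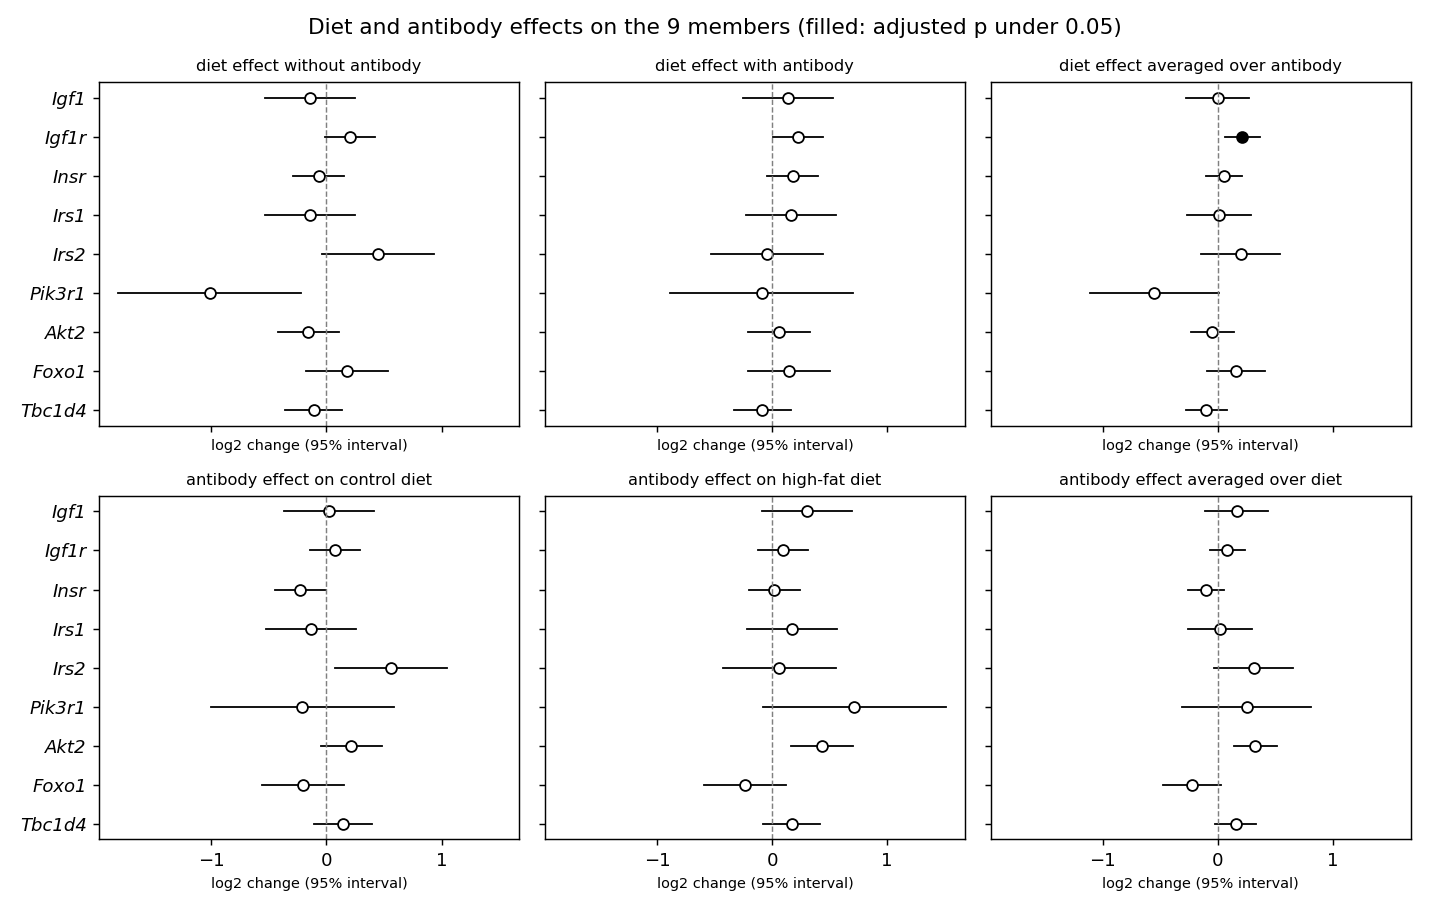
Log2 change of each member with its 95% interval from the linear model, high-fat minus control diet in the top row and antibody minus untreated in the bottom row, for each stratum and averaged over the other factor. The filled point, Igf1r in the averaged diet effect, is the one value past the threshold, and the Pik3r1 intervals are the widest in every panel.

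Igf1 encodes the ligand IGF1, made in fat by stromal cells and macrophages as well as adipocytes. Its group means were 8789 ± 1813 normalized counts in untreated control-diet mice, 8876 ± 1456 with antibody on that diet, 7933 ± 1408 in untreated high-fat mice and 9846 ± 2331 with antibody on the high-fat diet (SD, n = 4 each). All 4 groups overlapped, and the highest library was replicate 2 in both antibody groups, at 10948 and 13181. The log2 change with antibody on the high-fat diet was 0.30, with a 95% interval from -0.09 to 0.69 (adjusted p = 0.518, limma), and the averaged diet effect was -0.002 (-0.28 to 0.27, adjusted p = 0.993).

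Igf1r, the IGF1 receptor gene (ENSMUSG00000005533, GRCm38 chromosome 7, 67952827 to 68233668), was higher on the high-fat diet. Untreated control-diet libraries held 713, 544, 591 and 507 normalized counts, and untreated high-fat libraries 588, 660.03, 697 and 753. With antibody, control-diet libraries held 619.6, 592, 579 and 669.7 and high-fat libraries 683.5, 690.2, 719.6 and 778. Without antibody the diets overlapped, because control-diet replicate 1 (713) exceeded 3 of the 4 high-fat libraries. With antibody every high-fat library exceeded every control-diet library. The log2 change was 0.20 ± 0.10 (SE) without antibody (adjusted p = 0.19) and 0.22 ± 0.10 with it (adjusted p = 0.26), and averaged 0.21 ± 0.07, a 1.16-fold rise (95% interval 0.06 to 0.37, adjusted p = 0.049, limma). This call is close to the threshold: it held in 3 of the 16 fits that each left out 1 library (without control-diet antibody replicate 4, untreated control-diet replicate 1 or untreated high-fat replicate 1), with adjusted p up to 0.1 in the others. Without untreated control-diet replicate 1 the diet effect in untreated mice passed as well (0.30, adjusted p = 0.0235, limma), in a fit that called 4119 of 14189 genes for this contrast.

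Insr, the insulin receptor gene (ENSMUSG00000005534, chromosome 8, 3122061 to 3279617), held 4240.1, 4132, 4046 and 4048 normalized counts in control-diet libraries with antibody, and 4855, 4616, 4350.4 and 4854 in high-fat libraries with antibody. These groups did not overlap. In untreated mice the control diet gave 4436, 4709, 6131 and 4211 and the high-fat diet 5342, 4046, 4519.7 and 4595, which overlapped almost completely. The control-diet antibody group was very tight, with a coefficient of variation of 2.23% against 17.7% in untreated control-diet libraries. The log2 change with diet was 0.18 ± 0.10 with antibody (adjusted p = 0.372) and -0.07 ± 0.10 without (adjusted p = 0.695), and the interaction was 0.25 (95% interval -0.07 to 0.56, adjusted p = 0.87).

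Of the 9 members 2, Igf1r and Insr, had high-fat and control-diet groups that did not overlap in antibody-treated mice, against 15.5% of all genes tested. For both the exact two-sided permutation p was 0.0286, the smallest that 4 against 4 libraries allow. After adjustment over the 36 tests of 9 members and 4 comparisons it was 0.514. Groups of 4 that do not overlap always give this smallest p, so it restates the lack of overlap. With such a floor, adjustment over 36 tests could not leave 2 of them under 0.05. The tests of Igf1r and Insr were the only 2 of the 36 below 0.05 before adjustment. No member had groups that did not overlap for the diet without antibody (9.73% of all genes), for the antibody on the high-fat diet (7.38%) or for the antibody on the control diet (6.77%). Muscle markers differed in the same comparison, with no overlap between 33743 to 188639 on the control diet and 151 to 9074 on the high-fat diet, both with antibody; their part in the values of Igf1r and Insr was not tested. In untreated mice, macrophage markers were between 23402 and 46602 on the control diet and between 29943 and 52295 on the high-fat diet, and 1 of 7 rose with the averaged diet effect; progenitor markers ran from 19064 to 47608 and from 26685 to 47006, with 1 of 7 rising. Their part in the Igf1r value was not tested.

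Irs1 (ENSMUSG00000055980, chromosome 1, 82233101 to 82291416) encodes the main docking protein of insulin signalling in fat cells. Its group means were 2559 ± 331 normalized counts in untreated control-diet mice, 2318 ± 39 with antibody on that diet, 2390.3 ± 726 in untreated high-fat mice and 2628 ± 475 with antibody on the high-fat diet (SD, n = 4 each). The untreated high-fat group ran from 1584 to 3214 and so spanned every library of the other 3 groups. No contrast moved Irs1 by more than 0.17 on the log2 scale apart from the interaction (0.30, 95% interval -0.25 to 0.86, adjusted p = 0.875, limma).

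Irs2 (ENSMUSG00000038894, chromosome 8, 10984681 to 11008458), the second docking protein gene, held 1793, 1497, 2669.5 and 1260.4 normalized counts in untreated control-diet libraries. With antibody on that diet it held 2107, 2033, 2847 and 3489. Untreated high-fat libraries held 2195, 2005, 2255 and 3149, and high-fat libraries with antibody 1989.7, 2229, 2842 and 2959. Untreated control-diet libraries were the lowest except for replicate 3, which lay inside the range of the other groups and made all 4 groups overlap. The log2 change with antibody on the control diet was 0.56 ± 0.23, or 1.47-fold (95% interval 0.07 to 1.05, adjusted p = 0.35, limma), and with diet in untreated mice 0.45 ± 0.23 (adjusted p = 0.2). On the high-fat diet the antibody value was 0.06 ± 0.23 (adjusted p = 0.94), and the interaction was -0.49 ± 0.32 (adjusted p = 0.87). The exact permutation p for the antibody on the control diet was 0.114. Untreated control-diet replicate 3 also had the highest beige marker sum of all 16 libraries (77705); its part in the Irs2 value was not tested.

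Pik3r1 (ENSMUSG00000041417, chromosome 13, 101680563 to 101768217) encodes the regulatory subunits p85 alpha, p55 alpha and p50 alpha, which hold and stabilise the catalytic subunit. It varied most among the members, with a 4.02-fold range over the 16 libraries. Untreated control-diet libraries held 5795, 15707, 12857 and 14422 normalized counts, and untreated high-fat libraries 4481, 5395, 5000.7 and 8366. With antibody, control-diet libraries held 10351, 14104, 6430.5 and 10075 and high-fat libraries 10780.0, 18003, 6524 and 5809. The untreated groups overlapped because control-diet replicate 1 (5795) lay below high-fat replicate 4 (8366), though above the other untreated high-fat libraries. The other 3 untreated control-diet libraries were above every untreated high-fat library. Control-diet replicate 1, which also decided the Igf1r call in untreated mice, stood apart from its group in its markers. Progenitor markers summed to 47608 against 19064 to 26925 in the other 3 libraries of its group, and macrophage markers to 46602 against 23402 to 30002. Untreated high-fat replicates 3 and 4 had like sums, 44257 and 47006 for progenitor and 52295 and 44413 for macrophage markers. Its adipocyte markers summed to 523846, the lowest of all 16 libraries. Their part in these values was not tested. The diet effect in untreated mice was -1.02 ± 0.37 on the log2 scale (95% interval -1.81 to -0.22, adjusted p = 0.0891, limma; exact permutation p = 0.0571). Without control-diet replicate 1 it passed the threshold (-1.34, adjusted p = 0.0115, limma), in a fit that called 4119 of 14189 genes for this contrast. That was the 1 of 16 fits leaving out 1 library in which Pik3r1 passed, with adjusted p up to 0.213 in the others. With antibody the diet effect was -0.09 ± 0.37 (adjusted p = 0.925), and the interaction was 0.92 (95% interval -0.20 to 2.05, adjusted p = 0.87), so a difference between the 2 diet effects was not detected and the interval is wide.

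Akt2 (ENSMUSG00000004056, chromosome 7, 27591552 to 27640826) encodes the AKT isoform most tied to glucose uptake in fat and muscle. Untreated high-fat libraries held 11939, 8458, 7925 and 8139 normalized counts, and high-fat libraries with antibody 11909, 13539, 11552 and 11648. Untreated control-diet libraries held 8593, 9953, 11353 and 10378, and those with antibody 12303, 11655, 10235 and 12524. On the high-fat diet the groups overlapped through untreated replicate 1 alone, which was above 3 of the 4 antibody libraries. The antibody value was 0.43 ± 0.12 on the log2 scale on the high-fat diet, or 1.35-fold (95% interval 0.17 to 0.70, adjusted p = 0.158, limma; exact permutation p = 0.114). On the control diet it was 0.22 ± 0.12 (adjusted p = 0.537), and averaged over diets 0.33 ± 0.09, or 1.25-fold (95% interval 0.14 to 0.51, adjusted p = 0.0651). Without untreated high-fat replicate 1 the value passed the threshold on the high-fat diet (0.57, adjusted p = 0.0169) and averaged (0.39, adjusted p = 0.00804), and without untreated control-diet replicate 3 the averaged value did too (0.36, adjusted p = 0.0481). It thus passed in 1 and 2 of the 16 fits that left out 1 library, with adjusted p up to 0.395 and 0.145 in the others (limma). Over these fits 1 to 271 and 144 to 533 of all 14189 genes were called. Untreated high-fat replicate 1 had the highest beige marker sum (13315) and the highest adipocyte marker sum (664643) of its group; their part in its Akt2 level was not tested.

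Foxo1 (ENSMUSG00000044167, chromosome 3, 52268336 to 52353221), the transcription factor that AKT2 restrains, had group means of 2804 ± 384 normalized counts in untreated control-diet mice and 2446 ± 495 with antibody on that diet. On the high-fat diet they were 3215 ± 774 without and 2683 ± 339.8 with antibody (SD, n = 4 each). Among the members it was the one with a lower mean with antibody on the high-fat diet, at -0.24 ± 0.17 on the log2 scale (adjusted p = 0.585, limma). On the control diet the value was -0.21 ± 0.17 (adjusted p = 0.695), and averaged -0.22 ± 0.12 (adjusted p = 0.371). All 4 groups overlapped.

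Tbc1d4 (ENSMUSG00000033083, chromosome 14, 101442360 to 101609191), whose product AS160 links AKT to GLUT4 vesicles, was among the steadiest members, with a 1.55-fold range over 16 libraries. Its group means were 2261 ± 365 normalized counts in untreated control-diet mice, 2488 ± 326 with antibody on that diet, 2080.05 ± 216 in untreated high-fat mice and 2334 ± 169 with antibody on the high-fat diet (SD, n = 4 each). The averaged antibody value was 0.16 ± 0.08 on the log2 scale (95% interval -0.02 to 0.33, adjusted p = 0.365, limma), and the averaged diet value -0.10 ± 0.08 (adjusted p = 0.4).

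When each member's 4 group means were put in order, 2 of 27 neighbouring pairs differed by more than the larger of their SDs. For Pik3r1 the step from untreated high-fat mice to antibody-treated control-diet mice was 4429 normalized counts against an SD of 3135. For Akt2 the step from untreated to antibody-treated control-diet mice was 1610.1 against an SD of 1145. All other neighbours lay within their spread.

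The median of the 9 log2 changes is given beside that of all genes tested. With diet in untreated mice it was -0.11 against 0.02, with 3 of 9 values positive beside 53.1% of all genes. In antibody-treated mice it was 0.14 against 0.02, with 6 of 9 positive beside 53.9%. For the antibody it was 0.17 against 0.0003 on the high-fat diet, with 8 of 9 positive beside 50.1%. On the control diet it was 0.03 against -0.01, with 5 of 9 positive beside 48.0%. The comparisons within a diet or a treatment share libraries, so these values are not independent of each other.

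**Figure D3:**
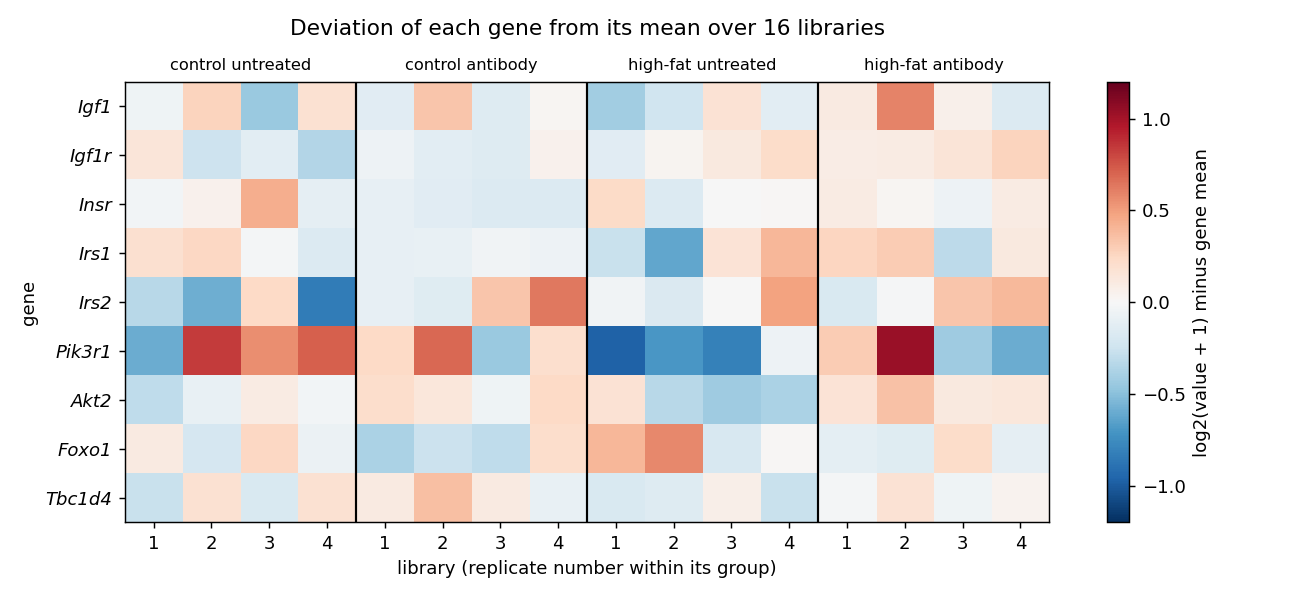
Deviation of each library (columns, by group and replicate) from the mean of a gene over all 16 libraries (rows), on the log2(normalized counts + 1) scale, red above and blue below the mean. Pik3r1 holds the largest deviations, and no library is high or low in all 9 members.

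The members did not rise and fall together across the 16 libraries. Of the 36 pairs of members 20 had a positive and 16 a negative Pearson correlation of log2 values, with a median of 0.06. The libraries share groups and a common normalization, and the values are given as a description. The strongest positive pair was Tbc1d4 and Igf1 (r = 0.68, Spearman rho = 0.66), with r = 0.69 for deviations from the group means. The strongest negative pair was Foxo1 and Tbc1d4, whose products are both targets of AKT2 (r = -0.71, rho = -0.76), with r = -0.61 for deviations from the group means. For Insr and Irs1, which follow each other in the cascade, r was 0.25, with r = 0.18 for deviations from the group means. It was 0.72 without the 2 libraries farthest from the median of Insr, so that value depends on those libraries. For Insr and Irs2, the same step of the cascade, r was 0.08, and -0.06 without those libraries.

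**Figure D4:**
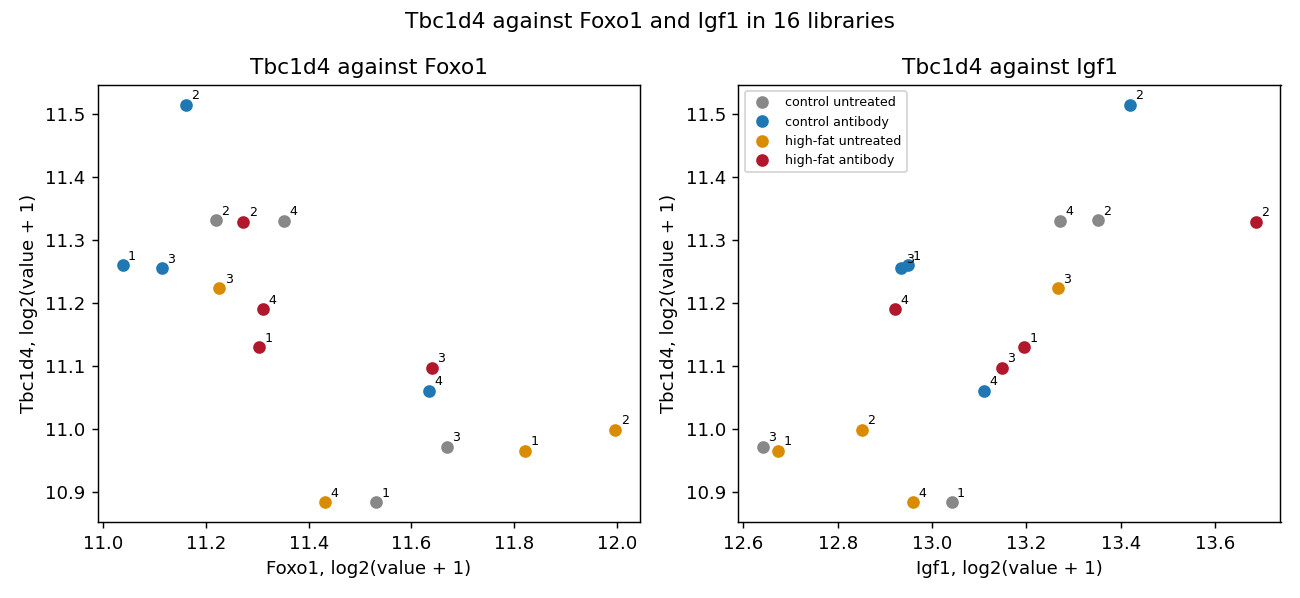
Log2(normalized counts + 1) of Tbc1d4 (vertical axes) against Foxo1 and against Igf1 (horizontal axes) in the 16 libraries, coloured by group and numbered by replicate. Tbc1d4 is lower where Foxo1 is higher (r = -0.71) and higher where Igf1 is higher (r = 0.68), with libraries of all 4 groups along both slopes.

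Among the genes tested, predicted genes left out (symbols starting with Gm and a digit or ending in Rik), those with the most similar pattern over the 16 libraries were named for each member by Pearson's r. For Pik3r1 Irf2 (0.89) is given, and for Irs2 Dcst1 (0.85). For Akt2 they were Mif4gd (0.91) and Rasl12 (0.90), for Foxo1 Snrk (0.90) and Vezt (0.88), and for Igf1r E2f7 (0.90) and Abca5 (0.86). For Insr they were Cat (0.90), the catalase gene, and Arhgef12 (0.87), for Irs1 Ccdc174 (0.85) and Gbp11 (0.80), for Tbc1d4 Gzmb (0.86), and for Igf1 Atxn7l1 (0.84) and Klhl2 (0.83). Each was picked as among the highest of the genes searched, so a high r follows in part from that choice.

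The wider pathway was followed in 7 lists of 91 genes, of which 87 were tested: ligands and binding proteins, receptors and adaptors, PI3K and AKT, mTOR, negative regulators, glucose uptake and FOXO. With diet in untreated mice 2 of the 87 rose and 1 fell (limma), 3.45% against 8.15% of all genes, of which 2.98% rose and 5.17% fell. Cblb, a ubiquitin ligase that restrains receptor signalling, rose by 0.43 ± 0.11 on the log2 scale (adjusted p = 0.0348), and Inpp5d, a lipid phosphatase of blood cells, by 0.61 ± 0.14 (adjusted p = 0.0301). Slc2a4, which encodes GLUT4, fell by 0.77 ± 0.16 (adjusted p = 0.0242). These 3 calls held in 11, 11 and 12 of the 16 fits that left out 1 library, each being lost without untreated control-diet replicate 3 or 4 or high-fat replicate 3 or 4, and those of Cblb and Inpp5d also without high-fat replicate 2. All 3 calls were lost when only the 2 compared groups were fitted, with the replicate block, and without untreated control-diet replicate 3 and high-fat replicate 2 together, settings under which 0 genes of the whole table passed in this contrast. For the diet with antibody, the antibody on either diet and the interaction, 0 of 87 passed by limma, while 12, 18, 11 and 2 had an unadjusted p under 0.05. These are 13.8%, 20.7%, 12.6% and 2.30% of the 87, beside 18.1%, 13.5%, 11.6% and 6.18% of all genes tested.

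Averaged over antibody, 4 of the 87 genes rose with the high-fat diet and 6 fell, 11.5% against 19.4% of all genes tested, of which 8.28% rose and 11.1% fell. Slc2a4 averaged 9869.9 ± 2712 and 9805 ± 1003 normalized counts on the control diet without and with antibody, and 5671 ± 835 and 6602 ± 305 on the high-fat diet (SD, n = 4 each), a log2 change of -0.67 ± 0.11 (adjusted p = 0.00498, limma). Phlpp2, a phosphatase that acts on AKT, rose by 0.29 ± 0.05 (adjusted p = 0.00624), Cblb by 0.37 ± 0.07 (adjusted p = 0.0072) and Inpp5d by 0.42 ± 0.10 (adjusted p = 0.0139). Eif4ebp2, a repressor of translation that mTOR inactivates, fell by 0.24 ± 0.05 (adjusted p = 0.0103). These 5 calls held in all 16 fits that left out 1 library. The kinase gene Gsk3a fell by 0.27 ± 0.08 (adjusted p = 0.0282), Mapkap1, an mTOR complex subunit, by 0.18 ± 0.06 (adjusted p = 0.0383) and the adaptor Sh2b1 by 0.24 ± 0.08 (adjusted p = 0.0481), while Tbc1d1, the paralogue of Tbc1d4, rose by 0.19 ± 0.06 (adjusted p = 0.0481). Trib1, named after its value was seen, fell by 0.50 ± 0.16 (adjusted p = 0.0384). Of these last calls Gsk3a held in 11, Mapkap1 in 5, Trib1 in 6, Sh2b1 in 4 and Tbc1d1 in 3 of the 16 fits. Of 7 other settings, Gsk3a held in 5, Mapkap1 in 4, Trib1 in 4, Sh2b1 in 2 and Tbc1d1 in 2, while the 5 calls named before held in all 7. In the same contrast 1 of 7 macrophage, 1 of 7 progenitor and 1 of 5 endothelial markers rose and 2 of 4 beige markers fell. None of the 9 muscle markers had a call, though their median log2 change was -2.29. The part of these cell types and of muscle in these values was not tested.

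Averaged over diet, 4 of the 87 genes rose with the antibody and 3 fell, 8.05% against 2.52% of all genes tested, of which 1.54% rose and 0.987% fell. The lists were chosen with earlier results of these data known, so the difference between these shares is given as a description only. Gab1, a docking protein that binds phosphatidylinositol 3-kinase, averaged 650.7 ± 87.6 and 734 ± 83.2 normalized counts in untreated control-diet and high-fat mice, and 876 ± 72.7 and 1033 ± 185 with antibody (SD, n = 4 each), a log2 change of 0.46 ± 0.09 (adjusted p = 0.0161, limma). Pik3r3, a regulatory subunit related to Pik3r1, rose by 0.46 ± 0.10 (adjusted p = 0.0232) and Trarg1, which takes part in GLUT4 trafficking, by 0.58 ± 0.14 (adjusted p = 0.0438). Foxo6 is counted among the 4, with a log2 value of 2.04 ± 0.44 (adjusted p = 0.0267) that was 1.39 with a pseudocount of 10. It was above the filter value of 24.5 in 4 of 4 control-diet and 3 of 4 high-fat libraries with antibody, but in 1 of 4 untreated libraries on each diet. It thus entered the test through the groups where it is high, and its difference supports nothing; without it 3 of 86 genes rose and 3 fell, 6.98%. Ccng2, a cyclin gene that FOXO factors activate, fell by 0.46 ± 0.09 (adjusted p = 0.0122), Cblb by 0.33 ± 0.07 (adjusted p = 0.031) and Pik3ca, a catalytic subunit, by 0.18 ± 0.04 (adjusted p = 0.0374). Gab1 and Ccng2 kept the call in all 16 fits that left out 1 library, Pik3r3 in 14, Foxo6 in 10, Cblb in 6, Pik3ca in 5 and Trarg1 in 3. Of 7 other settings, Foxo6 held in 6, Cblb in 5, Trarg1 in 5 and Pik3ca in 3, and Gab1, Ccng2 and Pik3r3 in all 7. No marker list had a call in this contrast. The median log2 change of the muscle markers was -0.83. Within the diets it had opposite signs, 4.36 in control-diet mice and -5.67 in high-fat mice. For the beige markers the averaged median was 0.99. Muscle sums varied widely within groups, so the lack of calls does not show equal tissue content. The part of muscle and of these cell types in the antibody values was not tested.

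**Figure D5:**
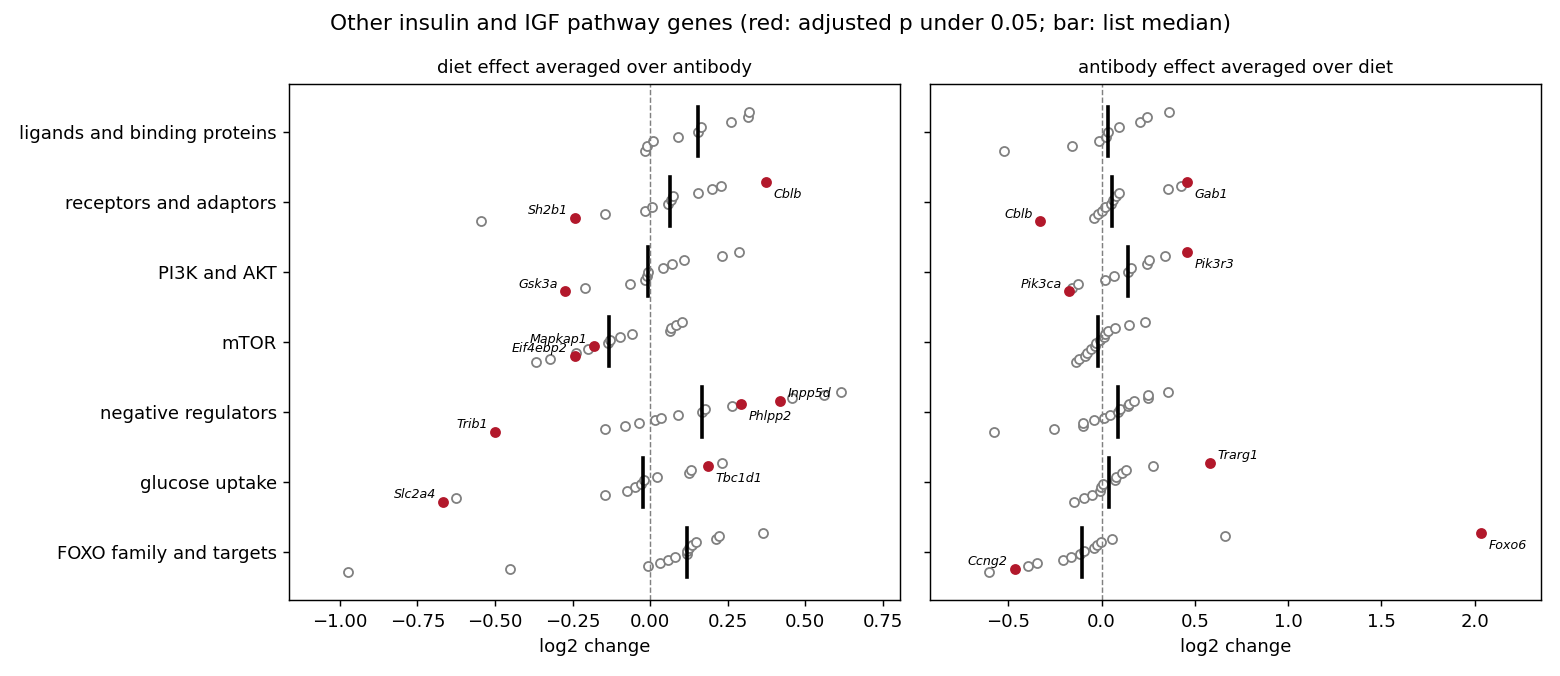
Log2 change of each tested gene of the 7 pathway lists for the averaged diet effect and the averaged antibody effect, with red points for genes past the threshold and a black bar at each list's median. With the diet the median is 0.17 for negative regulators, 0.155 for ligands and binding proteins, 0.12 for the FOXO list and -0.13 for the mTOR list, beside 0.02 for all genes tested. With the antibody it is 0.14 for the PI3K and AKT list and -0.10 for the FOXO list, beside -0.008 for all genes tested.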

How the data were processed

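Gene expression in inguinal white adipose tissue was measured by poly-A RNA sequencing with a stranded kit in 16 libraries, 4 per group. The submitters' processing notes name fastp 0.20.1, STAR 2.7.0e, featureCounts, Subread 1.6.2, limma 3.42.2 and the builds mm10 and GRCm38, with no role for each. The authors deposited 1 table of normalized counts, a linear signal per gene whose scaling no label states; the values are not whole, so no count model was used and read depth is unknown. Values were converted to log2(value + 1), and fold changes are on that scale. Genes above 24.5 in at least 4 libraries (14189 of 16091) entered limma 3.58.1 (R 4.3.3) with 1 mean per group and a mean-variance trend, Benjamini-Hochberg adjusted over all genes tested. Exact permutation tests (two-sided, 70 assignments) were computed directly with numpy 2.4.6, and Spearman's rho between members with scipy 1.17.1. The procedure was tested on simulated data.

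The members and lists were chosen with earlier results of these data known. The text names the 9 members, list genes past the threshold (where over 8 in a contrast, the 2 of each list with the smallest p) and, for each member, the 2 genes most correlated with it, predicted genes left out. Some of these correlated genes are not reported here. Positions are from GENCODE on GRCm38. Alternatives were another pseudocount, no filter, equal totals, quantile scaling, no trend, a replicate block, fits of the compared groups alone, and leaving out each library. Epithelial markers, Igfbp2 and Irs4 were not analysed here.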

Additional observations from a re-analysis of the deposited data

Results flagged for a closer look

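Within 36 sets of 4 libraries (9 members in 4 groups), 2 had 1 library far from the other 3 by Dixon's ratio of the gap to the whole range, above the 95% critical value of 0.829. Chance gives about 1 such set in 20. Akt2 in untreated high-fat replicate 1 was 11939 normalized counts against 8458 in the nearest library, a ratio of 0.867. Foxo1 in high-fat antibody replicate 3 was 3191 against 2539.9, a ratio of 0.907.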

How the results depend on the processing

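Of the single-gene values under the alternatives, 1711 kept direction and side of the threshold, 160 lost a call, 8 gained one and 69 changed sign. The 69 belong to 17 member values, none of them past the threshold in either fit and none above 0.17 in size on the log2 scale. Their direction is therefore not settled. The causes of the changes were not tested.

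With equal totals the sign changed for Insr with diet without antibody (0.036), Irs2 with diet with antibody (0.018), the interaction of Tbc1d4 (-0.010) and of Igf1r (-0.015), and the averaged diet value of Akt2 (0.035) and of Igf1 (0.082). With quantile scaling it changed for the last 2 (0.0042 and 0.059). Without the doubted pair of libraries described next, it changed for Insr (0.11) and Irs1 (0.011) with diet without antibody, and for Insr (-0.043), Irs1 (-0.011) and Irs2 (-0.015) with antibody on the high-fat diet. It also changed there for Igf1 with antibody on the control diet (-0.12), the interaction of Foxo1 (0.020) and the averaged antibody value of Irs1 (-0.087).

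Leaving out 1 library at a time, values crossed 0 in these ranges. The diet value without antibody ran from -0.14 to 0.050 for Insr and from -0.30 to 0.039 for Irs1. The diet value with antibody ran from -0.16 to 0.10 for Irs2, from -0.41 to 0.13 for Pik3r1, from -0.0022 to 0.095 for Akt2 and from -0.015 to 0.24 for Igf1. The antibody value on the high-fat diet ran from -0.043 to 0.091 for Insr, from -0.011 to 0.33 for Irs1 and from -0.023 to 0.20 for Irs2, and on the control diet from -0.12 to 0.12 for Igf1. The interaction ran from -0.16 to 0.10 for Foxo1, from -0.045 to 0.11 for Tbc1d4 and from -0.075 to 0.089 for Igf1r. The averaged diet value ran from -0.070 to 0.10 for Irs1 and from -0.077 to 0.051 for Igf1, and the averaged antibody value from -0.072 to 0.098 for Irs1.

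Igf1r with the averaged diet effect lost its call with no filter (adjusted p = 0.0534), no trend (0.0574), the replicate block (0.0867) and when a pair of doubted libraries was left out (0.0886, all limma). The pair is replicate 3 of the control diet and replicate 2 of the high-fat diet, both untreated; it was listed as high in muscle markers, but only the latter is (566841 against 6874). The members called by this contrast were thus 0 in these 4 fits. Akt2 with the averaged antibody effect passed with equal totals (0.35, adjusted p = 0.0335) and quantile scaling (0.37, adjusted p = 0.019), so that 1 member was called in each.

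Genes called were 2 for the diet with antibody with no filter, 4 with equal totals, 641 with only the compared groups fitted and 298 without the doubted pair. For the diet without antibody they were 726 with no trend and 0 with the compared groups alone or without the doubted pair, and for the averaged diet effect 1562 without that pair. The antibody on the high-fat diet called 26 with quantile scaling and 4 with the compared groups alone. The antibody on the control diet called 3 with no trend and 0 with the compared groups alone. Fits of the compared groups alone were not run for the interaction and averaged effects.

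Replicate numbers did not pair the libraries in general: correlations of deviations ran from -0.539 to 0.487 over 16 pairs, 6 above 0.1, and the own number was best in 4 of 16. Those 4 were all replicate 2. Its values were 0.487 and 0.238 for the diet without and with antibody, and 0.469 and 0.126 for the antibody on the high-fat and control diets. What the replicate 2 libraries share was not tested. With the replicate block the genes called were 0 and 0 for the diet without and with antibody, 2 and 2 for the antibody on the high-fat and control diets, 1 for the interaction, 1498 for the averaged diet effect and 123 for the averaged antibody effect.

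Equal totals moved the median diet effect of all genes in untreated mice from 0.02 to 0.12 and the share of calls that were higher from 36.6% to 65.6% there, from 42.6% to 71.3% for the averaged diet effect, from 60.9% to 75.9% for the averaged antibody effect and from 57.1% to 86.7% for the antibody on the control diet. Quantile scaling moved it from 45.5% to 76.9% for the antibody on the high-fat diet. The shares for the antibody within a diet rest on few calls. On the control diet 8 of 14 were higher, and 13 of 15 with equal totals. On the high-fat diet 5 of 11 were higher, and 20 of 26 with quantile scaling.

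Leaving out 1 library at a time, genes called ran from 0 to 4119 (diet without antibody; 0 without untreated control-diet or high-fat replicate 4, 4119 without control-diet replicate 1), 0 to 239 (diet with antibody), 1 to 271 (antibody on the high-fat diet), 0 to 86 (antibody on the control diet), 0 to 1 (interaction), 1593 to 4721 (averaged diet) and 144 to 533 (averaged antibody). Members called ran from 0 to 2 for the diet without antibody and averaged, 0 to 1 for the antibody on the high-fat diet and averaged, and stayed at 0 for the diet with antibody, the antibody on the control diet and the interaction.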
